A study of Arabidopsis thaliana with 24 samples.

Results

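When Arabidopsis roots received brassinolide and L-kynurenine together, some transcripts ended above and others below the level that adding the 2 single responses would give. The quantity described here is that difference for each gene. It is the log2 change of BL+Kyn against mock minus the sum of the log2 changes of brassinolide (BL) alone and L-kynurenine (Kyn) alone, taken within each time and averaged over 12, 24 and 48 h. All 24 libraries of the series enter it, and 18948 of 40246 features with a mean normalized count of at least 5 were tested. A value of 0 means that the 2 responses add on the log2 scale, a positive value that the combined treatment lay above the sum ("higher"), and a negative value that it lay below ("lower").

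Brassinolide is the most active brassinosteroid, a steroid hormone perceived at the cell surface that changes transcription through the BES1 and BZR1 factors. L-kynurenine blocks TAA1-type aminotransferases, which start auxin synthesis from tryptophan, and thereby lowers auxin, the hormone that maintains the root meristem, patterns the root and drives root hair growth. The series asks in its title how the need for auxin in the root meristem relates to brassinosteroid action.

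Seedlings were of the Col-0 accession with no transgene named, grown for 3 days before transfer. The 4 treatments were mock, 0.8 nM BL, 4 µM Kyn, and both at those doses, each harvested at 12, 24 and 48 h with 2 libraries, described as biological replicates. RNA came from roots cut a short distance behind the tip, so a sample mixes meristem, elongating and differentiating cells. In such bulk tissue, fewer cells of a type and less RNA per cell cannot be told apart. Libraries were read at the 3' end of transcripts with CEL-Seq2, a counting method, and held 6322167 to 31365110 reads each.

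In 2 of the 24 libraries, BL at 12 h replicate 2 and Kyn at 12 h replicate 2, the 16 listed green-tissue transcripts summed to 0.863% and 1.00% of the normalized total, against 0.018 to 0.0842% in the others. None of these 16 markers was called in the departure, but their median was -3.91 at 12 h, 0.43 at 24 h and 1.20 at 48 h, and the fit was therefore repeated on the 16 libraries of 24 and 48 h. BL+Kyn at 48 h replicate 1 stood farther from the sum than replicate 2: the genes called lower had a median departure of -1.11 in the first and -0.53 in the second. Among the other 4 BL+Kyn libraries that median ran from -0.56 to -0.39.

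With limma, 755 of 18948 genes departed from the sum at an adjusted p under 0.05 (3.98%), 315 higher (1.66%) and 440 lower (2.32%). Before adjustment 4122 genes (21.8%) had a p under 0.05. All 6 BL+Kyn libraries lay on the same side of the sum for 700 of the 755 genes, and 737 (97.6%) had the same sign at all 3 times, against 42.0% of all tested genes. The 755 were called on the mean of these same libraries, so agreement in sign, also in refits, follows largely from that choice. Sizes ran from 0.299 to 2.81 in absolute value, with a median of 0.66 for higher and -0.62 for lower genes, against 0.0071 over all genes tested. The signs held in every fit with 1 library left out, but the count did not: it ran from 151 without BL+Kyn at 12 h replicate 2 to 3087 without BL+Kyn at 48 h replicate 2, and was 91 without both libraries rich in green-tissue transcripts. On the untransformed scale 182 genes were called, 134 higher and 48 lower, and 754 of the 755 kept their sign.

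The sum of the BL and Kyn changes lay within 1 SE of 0 for 400 of the 755 (53.0%), against 59.1% of all tested genes. Of the others, BL+Kyn went farther than the sum in the same direction for 154, fell short of it for 48, and went the opposite way for 153. Among lower genes with a sum outside 1 SE, 105 went farther and 65 went the opposite way, while among higher genes 49 went farther, 38 fell short and 88 went the opposite way. The departure and the sum share the mock, BL and Kyn libraries, so these counts describe the called genes and were not tested.

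**Figure D1:**
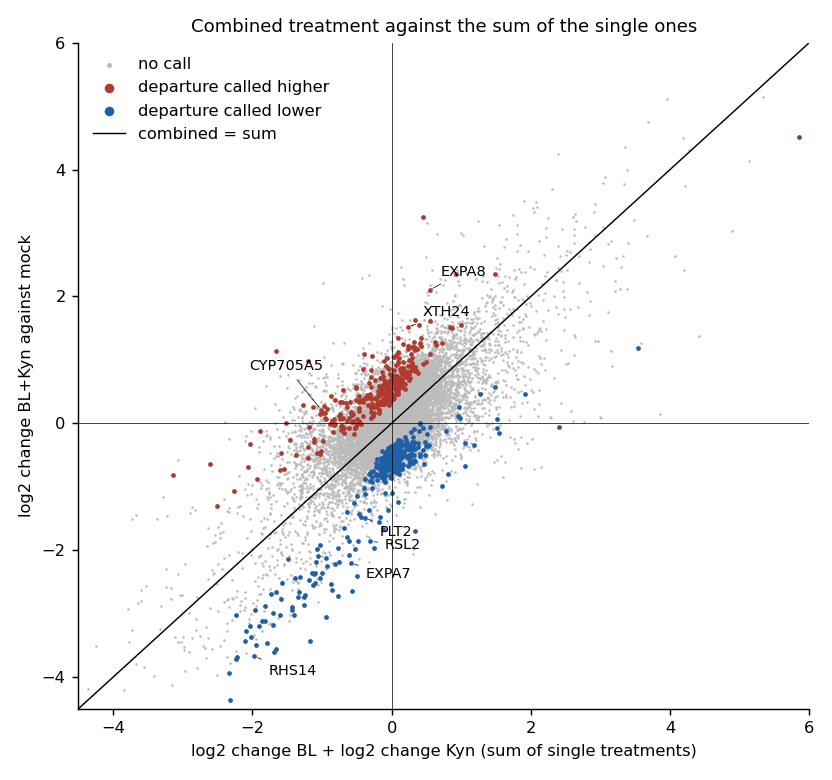
Log2 change of BL+Kyn against mock (vertical) against the sum of the log2 changes of BL and of Kyn (horizontal) for the 18948 tested genes, averaged over 3 times, with the line where both are equal. The 315 red genes were called above the line and the 440 blue genes below it; RHS14 and EXPA7 lie among genes that Kyn alone already lowered, whereas RSL2, PLT2, EXPA8 and XTH24 have sums nearer 0.

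Genes of root hairs, the tubular outgrowths of epidermal cells whose growth depends on auxin, lay below the sum. Most were already lower with Kyn alone, near or slightly above mock with BL alone, and lower with the combination than the sum. Of 13 tested genes on the root hair growth list (14 listed), 6 were called lower and none higher, against 2.32% and 1.66% of all tested genes. All 13 had negative departures. The list's median was -0.94, against 0.0071 for all genes. Its median log2 changes were 0.18 for BL, -1.53 for Kyn and -2.42 for BL+Kyn.

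EXPA7, an alpha-expansin that loosens the wall of growing root hairs (AT1G12560, chromosome 1, 4276519 to 4277899, TAIR10), shows the pattern. Its normalized count had a lowest, median and highest value of 1587, 1995 and 2846 over the 6 mock libraries, 1870, 2747 and 3859 in BL, 962, 1069 and 1286 in Kyn, and 218, 486 and 975 in BL+Kyn. The Kyn libraries lay below every mock and BL library, and the BL+Kyn libraries lay below mock and BL and overlapped with Kyn only at their highest value. Additive responses would have put its level at 1396, and the fitted level was 452. The departure was -1.62 (SE 0.25, limma adjusted p = 0.00448), present in 6 of 6 BL+Kyn libraries, and -0.56 at 12 h and -2.32 at 48 h.

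RSL2, a basic helix-loop-helix factor that promotes root hair elongation (AT4G33880, chromosome 4, 16239363 to 16241137), had single responses near mock. The lowest, median and highest counts were 228, 336 and 412 in mock, 161, 277 and 320 in BL and 290, 316 and 387 in Kyn. In BL+Kyn the replicates gave 153 and 133 at 12 h, 118 and 140 at 24 h, and 21.6 and 55.5 at 48 h. Every BL+Kyn library was below every library of the other treatments. Its departure was -1.56 (SE 0.25, adjusted p = 0.00467 by limma) and reached -3.04 at 48 h.

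EXPA18, a second root hair expansin, departed by -1.33, LRX1, an extensin that organises the hair wall, by -1.11, PRP3, a proline-rich hair wall protein, by -0.98, and COW1, a phosphatidylinositol transfer protein of hair tips, by -0.94 (adjusted p = 0.00794, 0.0214, 0.0398 and 0.0387 by limma). PRP3 had median counts of 24846 in mock, 30721 in BL, 5624 in Kyn and 3600 in BL+Kyn, so most of its decrease was already present with Kyn alone. The regulators RSL4 and RHD6, which act in hair initiation and growth, the oxidase gene RHD2 and the cellulose-synthase-like gene CSLD3 had departures of -0.50, -0.29, -0.33 and -0.22 and were not called. COW1 falls outside the naming rule and completes the list's calls.

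**Figure D2:**
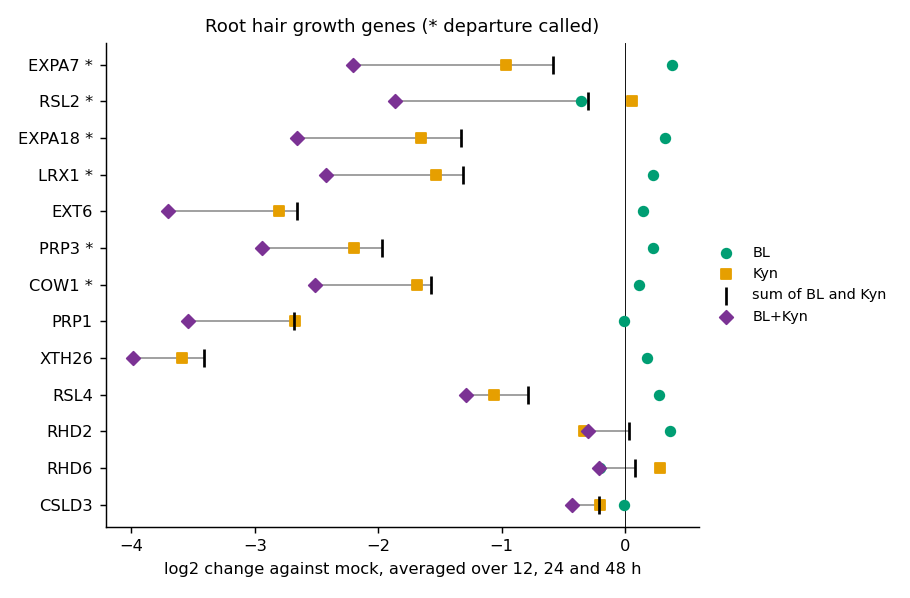
Log2 change against mock, averaged over 12, 24 and 48 h, for the 13 tested root hair growth genes under BL, Kyn and BL+Kyn, with a bar at the sum of the single changes; a star marks the 6 genes with a called departure. In all 13 genes the BL+Kyn point lies to the left of the sum.

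Further genes lay on the same side, several of them named as root hair specific (RHS). The 12 largest negative departures among called genes with a symbol, a mean of at least 20 and 1 sign at all times were those of RHS6 (-2.25), RHS14 (-1.70), IQD20 (-1.66), CCP3 (-1.62), RHS13 (-1.60), RSH4 (-1.55), PPa3 (-1.51), RHS19 (-1.49), XTH14 (-1.42) and GH9C1 (-1.42), besides EXPA7 and RSL2. RHS14, a pectate lyase-like gene, had median counts of 390 in mock, 469 in BL, 96.6 in Kyn and 29.4 in BL+Kyn. Its 6 BL+Kyn libraries lay between 16.9 and 51.3, below the 74.2 to 113 of Kyn. RHS6, a receptor kinase gene of low level, had counts from 8.02 to 29.4 in Kyn and from 0.56 to 9.65 in BL+Kyn. LRL3, a basic helix-loop-helix factor of root hair growth, had a departure of -1.30 (SE 0.19, limma adjusted p = 0.00316) and of -2.48 at 48 h.

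In the fit to 24 and 48 h alone, where 134 of 18948 genes were called (0.707%), 4 root hair list genes were called lower: EXPA7 (-2.16, adjusted p = 0.0058), RSL2 (-2.11, 0.00515), EXPA18 (-1.67, 0.016) and LRX1 (-1.49, 0.0456), all by limma. The list's calls of PRP3 (0.0678) and COW1 (0.054) ended there, as did that of RHS6 (0.0571). The calls of EXPA7, RSL2, EXPA18, LRX1, RHS13, RHS14 and CCP3 held without the 2 libraries rich in green-tissue transcripts. On the linear scale RSL2 was still called (0.0348) and the other 6 were not, with limma adjusted p from 0.0589 for RHS13 to 0.268 for RHS14. The list's departure was larger at 24 h (median -1.24) and 48 h (-0.88) than at 12 h (-0.28). In BL+Kyn at 48 h its median was -1.38 in replicate 1 and -0.47 in replicate 2.

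Genes that set the hair or non-hair fate of epidermal cells gave no call. Of 9 tested, among them WER, GL2, CPC and EGL3, none was called and 4 were positive, with a median of -0.12. The list and the hair growth list were not compared by a test.

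Wall protein genes were also among the lower calls. Of 34 tested genes with extensin in their description, 10 were called lower and 2 higher, against 2.32% and 1.66% of all tested genes. Their median was -0.62. The lower members included AT4G08400, an extensin-like gene (-1.47, adjusted p = 0.011), AT2G47530 (-1.46, 0.00578) and AT3G09925 (-1.45, 0.00578), both of the Ole e 1 and extensin family, and MOP10 (-1.11, 0.0176), with adjusted p by limma. AT4G08400 had median counts of 10177 in mock, 12181 in BL, 2786 in Kyn and 1555 in BL+Kyn. In the 24 and 48 h fit 6 members were called lower, and 5 without the 2 libraries rich in green-tissue transcripts, where the median was -0.22. The 53 tested genes described as class III peroxidases, wall enzymes, gave 2 higher and 2 lower calls, against 1.66% and 2.32% of all tested genes. That list was taken by description and leaves out RHS19, a lower gene named above. AT1G30870 (-1.43) and AT3G49960 (-1.30) were lower, while AT5G15180 (0.93) and AT3G21770 (0.47) were higher. AGP3, an arabinogalactan protein, was the only called member of 45 (-0.99), and pectin methylesterase and inhibitor genes gave 1 higher and 4 lower of 45. In the 24 and 48 h fit the pectin list gave 2 higher and 0 lower calls. Without the 2 libraries rich in green-tissue transcripts it gave 0 higher and 1 lower. Beside the shares of all genes, the few calls on the peroxidase and arabinogalactan protein lists are no result about those lists.

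The sequence before the starts of lower genes was searched for known promoter elements. The root hair element is a bipartite sequence found before root hair genes and bound by RSL-type factors. It occurred on either strand in the 250 bases before the start of 12 of 434 lower genes (2.76%), 3 of 308 higher genes (0.974%) and 123 of 18348 tested genes (0.67%), with starts as in the deposited table. Its holders on the root hair list were EXPA7, EXPA18, PRP3 and LRX1, which makes 4 of 12 windows. The element is known from root hair genes, so its matches on this list are not independent evidence. With starts moved to the outer of the table's and RefSeq's annotation, the counts were 14 of 440, 1 of 315 and 150 of 18860. On the root hair list it was then in 5 of 13. Other elements were searched too. The BR response element, CGTGTG or CGTGCG, was in 4 of the list's 12 windows, and in 6 of 13 with outer starts. It was in 39 of 434 lower windows (8.99%) and 1465 of all 18348 (7.98%). The auxin response element, W-box and G-box were in 2, 2 and 0 of the list's 12. A match is a description of these letters and was not tested as a binding site. The windows of EXPA7 (chr1:4276255-4276504, plus strand) and RHS13 (chr4:993040-993289, minus strand) lie before the outer start and are printed 5′ to 3′ from the RefSeq TAIR10.1 genome, whose nuclear chromosomes carried 18616 of 18621 compared genes at overlapping positions, with the element in capitals.
EXPA7: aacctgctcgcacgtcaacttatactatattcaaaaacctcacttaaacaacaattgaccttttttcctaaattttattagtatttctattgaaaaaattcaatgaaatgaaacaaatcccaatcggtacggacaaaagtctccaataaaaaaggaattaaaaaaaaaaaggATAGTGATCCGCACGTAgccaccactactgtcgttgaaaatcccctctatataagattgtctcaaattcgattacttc
RHS13: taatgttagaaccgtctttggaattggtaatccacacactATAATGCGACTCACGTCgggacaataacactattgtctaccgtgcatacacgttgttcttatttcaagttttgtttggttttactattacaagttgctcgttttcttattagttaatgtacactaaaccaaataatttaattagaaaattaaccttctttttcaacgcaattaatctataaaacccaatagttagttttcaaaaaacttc

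A second large group of lower genes belonged to ribosome production. These genes lay near mock with BL alone and with Kyn alone, and below mock with both. Of 291 tested genes described as ribosomal proteins, 86 were called lower and 2 higher, against 2.32% and 1.66% of all tested genes. Departures were negative for 275 of them (all but 16). The list was taken by description and also holds organellar proteins and relatives, and near-identical copies may share reads, so single members are uncertain. The median departure was -0.38, with the middle of the list between -0.49 and -0.28, against 0.0071 for all genes. The median log2 change was -0.07 for BL, 0.02 for Kyn and -0.43 for BL+Kyn.

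AT2G20450, a gene for large-subunit protein L14 (chromosome 2, 8813862 to 8815253), had counts with a lowest, median and highest value of 3862, 4910 and 6261 in mock, 4205, 4918 and 5369 in BL, 4152, 4986 and 5772 in Kyn, and 2303, 3350 and 3403 in BL+Kyn. All BL+Kyn libraries lay below all others. Its departure was -0.60 (SE 0.11, limma adjusted p = 0.0117). AT3G44590, for an acidic stalk protein, and AT4G34555, of the S25 family, departed by -0.68 and -0.71. Of the 2 genes called higher, AT1G53560 (0.81) is annotated as an L18ae family protein.

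The ribosomal departures were negative for 263 of 291 genes at 12 h, 257 at 24 h and 263 at 48 h, with medians of -0.35, -0.19 and -0.57. By library the list's median was -0.33 and -0.37 at 12 h, -0.17 and -0.24 at 24 h, and -0.81 and -0.33 at 48 h, so it was negative in all 6 BL+Kyn libraries. The number of calls depended on the libraries used: it was 2 lower without the 2 libraries rich in green-tissue transcripts, 0 lower in the fit to 24 and 48 h, and 201 lower without BL+Kyn at 48 h replicate 2. The median over the list stayed between -0.46 and -0.30 in these and all other alternatives on the log scale.

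**Figure D3:**
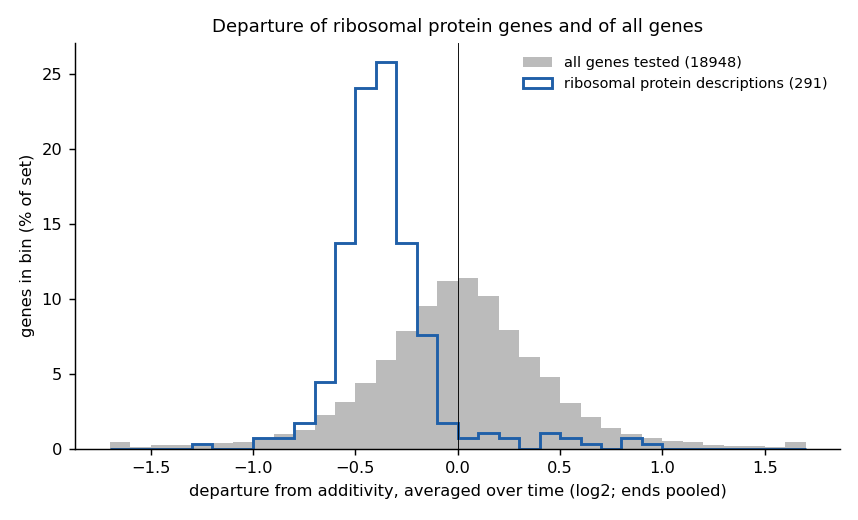
Share of genes (vertical, percent of the set) by departure from additivity (horizontal, log2) for 291 ribosomal protein genes (blue outline) and all 18948 tested genes (grey). The blue outline is centred near its median of -0.38 and the grey one near 0.

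Nucleolar genes also lay below the sum. Of 7 tested, 3 were called lower, against 2.32% of all tested genes. They were the fibrillarin gene FIB2 (-0.79), which methylates ribosomal RNA, NOP56 (-0.66), its partner in small nucleolar particles, and NUC1 (-0.64), a nucleolin. Their adjusted p by limma was 0.0323, 0.0245 and 0.0341. All 7 departures were negative, with a median of -0.59. In BL+Kyn at 48 h their median was -1.21 in replicate 1 and -0.28 in replicate 2. NOP56 had counts with a lowest, median and highest value of 1836, 2562 and 2913 in mock, 1962, 2534 and 2701 in BL, 1979, 2580 and 2763 in Kyn and 1132, 1611 and 2004 in BL+Kyn. Mock, BL and Kyn overlapped fully, and BL+Kyn overlapped with them only between 1836 and 2004. None of the 7 was called without the 2 libraries rich in green-tissue transcripts or in the fit to 24 and 48 h, where their median was -0.63.

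The same windows were searched for 2 short sequences known from ribosomal protein promoters. The telo-box, AAACCCTA on either strand, was in 111 of 434 lower windows (25.6%), 2 of 308 higher windows (0.649%) and 1035 of 18348 tested windows (5.64%). Site II, TGGGCC or TGGGCT on either strand, was in 207 (47.7%), 24 (7.79%) and 4482 (24.4%) of them. Without the ribosomal protein list the lower genes gave 20.7% and 38.2%, and 6.78% and 32.5% with the outer starts. With starts at the outer of the table's and RefSeq's annotation the telo-box shares were 8.18%, 0.635% and 3.65%, and those of site II 39.1%, 9.52% and 22.5%. The bases before NOP56 (chr1:20986953-20987127, minus strand) and AT2G20450 (chr2:8813697-8813831, plus strand), up to the neighbouring gene and before the outer start, are printed 5′ to 3′ from TAIR10.1 with matches in capitals, site II and the telo-box in NOP56 and site II in AT2G20450.
NOP56: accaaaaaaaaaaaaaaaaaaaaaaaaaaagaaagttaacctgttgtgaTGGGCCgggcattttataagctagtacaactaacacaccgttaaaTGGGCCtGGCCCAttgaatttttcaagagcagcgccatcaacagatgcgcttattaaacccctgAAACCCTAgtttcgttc
AT2G20450: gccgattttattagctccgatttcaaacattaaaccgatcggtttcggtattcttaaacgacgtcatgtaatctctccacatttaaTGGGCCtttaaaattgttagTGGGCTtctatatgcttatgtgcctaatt

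Among genes of the root meristem 2 were called below the sum. PLT1 and PLT2 encode PLETHORA factors, which are induced by auxin over long times and specify the stem cell niche. Of 14 tested meristem regulators these 2 were called lower, 12 were negative, and the median was -0.43. PLT2 had counts of 100.8, 113 and 141 in mock (lowest, median, highest), 64.4, 89.1 and 129 in BL, 90.9, 115 and 152 in Kyn and 28.1, 39.1 and 66.8 in BL+Kyn. Every mock and Kyn library lay above every BL+Kyn library, and the lowest BL library overlapped. Its departure was -1.11 (SE 0.22, limma adjusted p = 0.0146) and held in the fit to 24 and 48 h (-1.29, adjusted p = 0.0473 by limma), but not without the 2 libraries rich in green-tissue transcripts (0.0702) or on the linear scale (0.103). PLT1 departed by -0.91 (adjusted p = 0.0499, and 0.15 at 24 and 48 h and 0.159 without the 2 libraries rich in green-tissue transcripts).

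WOX5, the quiescent centre factor, had a departure of -0.10 (SE 0.65) that was not called, and its values of 20 normalized counts on average leave a wide error. SHR and SCR, which pattern the ground tissue, had departures of -0.04 and -0.32. Cell cycle genes gave few calls. All 17 S phase genes had negative departures with a median of -0.33, and 1 was called lower, PCNA1, the replication clamp (-0.46, adjusted p = 0.0226). Of 23 G2/M genes 22 were negative with a median of -0.31, and none was called, CYCB1;1 having -0.51 (SE 0.26, limma adjusted p = 0.267). Among 40 histone genes 1 was called lower, AT5G10390 (-0.46), which is near the 2.32% of all tested genes, and the median was -0.23. The calls of PCNA1 and AT5G10390 ended at 24 and 48 h (0.108 and 0.0791) and without the 2 libraries rich in green-tissue transcripts (0.0779 and 0.149). D-type cyclins had a median of -0.19 with no call, and CDK inhibitors and endocycle genes -0.03 with no call.

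Genes above the sum included wall-loosening enzymes that differ from the hair set. Alpha-expansins cut both ways: of 14 tested, EXPA8 and EXPA1 were called higher and EXPA15 lower (-0.74). EXPA8 (AT2G40610, chromosome 2, 16948863 to 16950557) had counts with a lowest, median and highest value of 45.8, 69 and 120 in mock, 78.2, 85.8 and 99.5 in BL, 50.5, 92.4 and 169 in Kyn and 234, 303 and 533 in BL+Kyn. Every BL+Kyn library exceeded every other library. Its departure was 1.55 (SE 0.27, adjusted p = 0.00839 by limma), with 0.0523 in the fit to 24 and 48 h, and that of EXPA1 was 1.27 (0.0107, and 0.0141 at 24 and 48 h).

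The xyloglucan endotransglucosylase family, which cuts and rejoins wall polymers, gave 1 higher and 2 lower calls among 21. It gave 1 higher and 1 lower at 24 and 48 h, and the same without the 2 libraries rich in green-tissue transcripts. XTH24 was higher by 1.28 (SE 0.19, limma adjusted p = 0.00316), and XTH14 and XTH16 were lower by log2 values of -1.42 and -0.69. XTH24 had median counts of 246 in mock, 168 in BL, 389 in Kyn and 626 in BL+Kyn. TCH4 (XTH22), a touch-induced member, had 1.44 with a wide error (SE 0.44) and was not called. Among primary wall cellulose genes 1 of 10 was called higher, the cellulase KOR1 (0.35). That call ended at 24 and 48 h and without the 2 libraries rich in green-tissue transcripts.

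**Figure D4:**
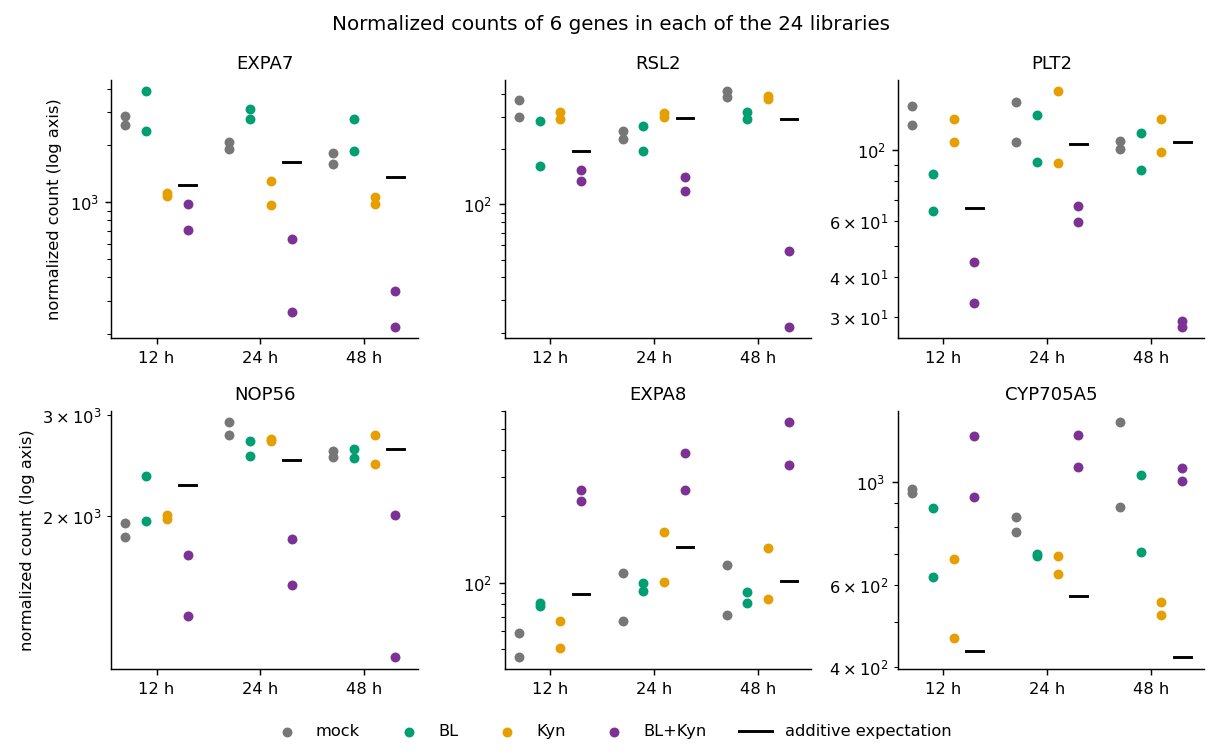
Normalized counts (log axis) of EXPA7, RSL2, PLT2, NOP56, EXPA8 and CYP705A5 in each of the 24 libraries by time, coloured by treatment, with a black bar at the level that additive responses would give BL+Kyn at that time. The BL+Kyn points lie below the bar for the first 4 genes at all times and above it for EXPA8 and CYP705A5.

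Aquaporins, the water channels of plasma membrane and vacuole, lay above the sum. Of 19 tested, 4 were called higher and none lower, 15 were positive and the median was 0.56. The calls were the tonoplast channels TIP2;2 (0.86), TIP1;2 (0.61) and TIP2;1 (0.36) and the plasma membrane channel PIP1;5 (0.68), with limma adjusted p from 0.0233 to 0.0408. TIP2;2 had counts of 7538, 8844 and 9501 in mock (lowest, median, highest), 7330, 8328 and 10551 in BL, 9413, 11894 and 13250 in Kyn and 12107, 20492 and 45835 in BL+Kyn. The highest value was that of BL+Kyn at 48 h replicate 1. TIP2;1 differs, with a log2 change of -0.73 in Kyn and of -0.17 in BL+Kyn. Before adjustment 13 of the 19 had a p under 0.05, against 21.8% of all genes, but the list gave no call without the 2 libraries rich in green-tissue transcripts or in the fit to 24 and 48 h, and 14 without BL+Kyn at 48 h replicate 2.

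Among genes of differentiating inner tissues 3 were called, all higher. All 10 Casparian strip genes, which build the endodermal barrier, had positive departures with a median of 0.49. SGN3, the receptor kinase that monitors the barrier, was called (0.54, limma adjusted p = 0.0458), and CASP1 had 0.41 (SE 0.15, adjusted p = 0.121). Before adjustment 8 of the 10 had a p under 0.05, against 21.8% of all genes. In BL+Kyn at 48 h the list's median was 0.91 in replicate 1 and 0.11 in replicate 2. All 12 xylem and secondary wall genes were positive with a median of 0.50, and 2 were called, XCP2, a xylem cysteine protease (0.64), and IRX1, a secondary wall cellulose synthase (0.67). IRX1 had median counts of 66.2 in mock, 68.5 in BL, 39.6 in Kyn and 60.4 in BL+Kyn, so that only Kyn alone lay low. XCP2 held in the fit to 24 and 48 h (0.77, adjusted p = 0.0489 by limma), and SGN3 and IRX1 did not (0.255 and 0.139). None of these 3 calls held without the 2 libraries rich in green-tissue transcripts. Phloem genes (median 0.27), HD-ZIP III factors (0.25), suberin genes (0.18) and root cap factors (-0.17) gave no call. Their medians changed sign between 12, 24 and 48 h. They were 0.22, -0.14 and 0.87 for phloem genes and -0.19, 0.0032 and 0.81 for HD-ZIP III factors. Suberin genes had -0.88, 0.61 and 0.45, and 0.65 in the fit to 24 and 48 h, and root cap factors -0.36, 0.22 and -0.46.

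Genes on the list of indole glucosinolate and camalexin synthesis lay above the sum. Indole glucosinolates are tryptophan-derived defence compounds that share the intermediate indole-3-acetaldoxime with auxin synthesis. Of 11 tested genes 4 were called higher, against 1.66% of all tested genes. All 11 were positive, with a median of 0.49. CYP79B3, which makes the oxime, had 0.71, CYP83B1, which commits it to glucosinolates, 0.68, SOT16, a sulfotransferase, 0.50, and UGT74B1, a glucosyltransferase, 0.40. CYP83B1 had counts of 943, 1106 and 1430 in mock (lowest, median, highest), 835, 1042 and 1220 in BL, 907, 1052 and 1202 in Kyn and 1218, 1490 and 1925 in BL+Kyn. The BL+Kyn libraries lay above those of Kyn and overlapped with BL only between 1218 and 1220 and with mock more widely. CYP83B1 was called at 24 and 48 h too (0.81, adjusted p = 0.0227 by limma), and the other 3 had adjusted p of 0.0571 to 0.188 there. Without the 2 libraries rich in green-tissue transcripts CYP83B1 alone of the 4 was called (0.044).

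Defence and stress genes gave single calls. WRKY33, a factor of camalexin and defence regulation, had counts of 646, 818 and 922 in mock (lowest, median, highest), 658, 685 and 892 in BL, 480, 606 and 820 in Kyn and 910, 1226 and 1485 in BL+Kyn, and departed by 1.07 (SE 0.16, limma adjusted p = 0.00316, and 0.00346 at 24 and 48 h). The BL+Kyn libraries lay above all BL and Kyn libraries and overlapped with mock only between 910 and 922. It was the single call among 13 salicylate and systemic immunity genes, whose median was 0.44. Of 14 jasmonate genes 2 were called higher, JAZ6 (1.09), a repressor of the pathway, and LOX4 (2.81), a lipoxygenase that 4 libraries list at 0 or below 1 and whose mean of 5.92 lies just above the minimum. ACS5, an ethylene synthesis enzyme, had 1.35. The tau-class glutathione transferases GSTU9, GSTU27, GSTU5 and GSTU26 were the 4 higher calls of 48, between 0.44 and 0.80, against 1.66% of all tested genes. None of the calls of JAZ6, LOX4, ACS5 and the 4 transferases held at 24 and 48 h (limma adjusted p from 0.0571 to 0.196), and without the 2 libraries rich in green-tissue transcripts only ACS5 (0.0407) and GSTU5 (0.0411) among these 7 did.

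The remaining of the 12 largest positive departures, by the same rule as for the lower genes, were MRN1 (1.70), a triterpene synthase, cwINV6 (1.48), a fructan hydrolase of the wall, LSU3 (1.23), a sulfur-starvation gene, CYP705A5 (1.22), SNRK2.7 (1.20), a protein kinase, LAC10 (1.20), a laccase, ANK1 (1.1796), an ankyrin protein, and CYP705A12 (1.12). CYP705A5, of thalianol metabolism, had counts of 780, 916 and 1346 in mock (lowest, median, highest), 625, 703 and 1036 in BL, 460, 591 and 692 in Kyn and 930, 1074 and 1267 in BL+Kyn. The BL+Kyn libraries lay within the range of mock from 780 to 1346 and above all Kyn libraries. SNRK2.7 had log2 changes of -0.77 in BL, -1.49 in Kyn and -1.07 in BL+Kyn, so the combination fell short of the sum. Of these 8 genes CYP705A5 was called both at 24 and 48 h and without the 2 libraries rich in green-tissue transcripts, LAC10 at 24 and 48 h, and the other 6 in neither.

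Hormone genes chosen as landmarks of either compound gave few calls. DWF4, CPD and BR6OX2, enzymes of brassinosteroid synthesis, had departures of 0.66 (SE 0.24, adjusted p = 0.114), 0.01 (SE 0.16, 0.973) and -0.20 (SE 0.19, 0.577), all by limma, and none of the 10 genes of that list was called. A p over the threshold does not show that these responses add. IAA19, an early auxin gene, had counts of 55.6, 63.9 and 79.1 in mock (lowest, median, highest), 62.2, 73.7 and 86.2 in BL, 10.9, 14.7 and 16.2 in Kyn and 7.3, 13.2 and 20.5 in BL+Kyn, and its departure was -0.25 (SE 0.25). GH3.3, an auxin-conjugating enzyme, had 0.21 (SE 0.57), YUC8, of auxin synthesis, 0.22 (SE 0.14), and TAA1, the target of Kyn, -0.48 (SE 0.22), none of them called. IAA17 (0.36) and IAA28 (0.42) were the 2 calls among 24 Aux/IAA repressors, both higher, and ARR8 (0.40) the call among 8 type-A cytokinin response regulators, where ARR5 had 0.45 (adjusted p = 0.0527). The calls of IAA17, IAA28 and ARR8 ended at 24 and 48 h (0.0614, 0.176 and 0.0768) and without the 2 libraries rich in green-tissue transcripts (0.141, 0.154 and 0.137).

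Among other landmark genes, MIOX4, a myo-inositol oxygenase, had median counts of 23.7 in mock, 141 in BL, 102 in Kyn and 392.1 in BL+Kyn, and a departure of -0.47 (SE 0.44). CYP706A2 had 1.16 (SE 0.59), FMO1, of systemic immunity, 1.36 (SE 0.72), and FIT, the iron uptake factor, 0.11 (SE 0.21), none called. CYP78A5, a cytochrome P450, had median counts of 9.28 in mock, 352 in Kyn and 254 in BL+Kyn and a departure of -1.34 (adjusted p = 0.0242, and 0.078 at 24 and 48 h and 0.0701 without the 2 libraries rich in green-tissue transcripts).

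In all, 23 of 47 gene lists held a called gene and 24 held none. Of all tested genes 3.98% were called, and the lists held from 4 to 291 tested genes. A long list can therefore hold a call by its size alone, and this count is no result about the lists. Lists with no call and not described above had medians between -0.18 and 0.34: BR inactivation 0.12, BR perception 0.05, other early auxin genes 0.25, auxin receptors and response factors 0.03, auxin synthesis -0.09, tryptophan synthesis 0.06, auxin transport -0.13, UDP-glucuronate synthesis -0.18, ethylene response 0.02, iron 0.25, flavonoids -0.02, abscisic acid 0.21, gibberellin 0.34, heat shock -0.16 and the clock 0.29. A median averaged over time can hide opposite times: other early auxin genes had 0.22 at 12 h, -0.54 at 24 h and 0.91 at 48 h.

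**Figure D5:**
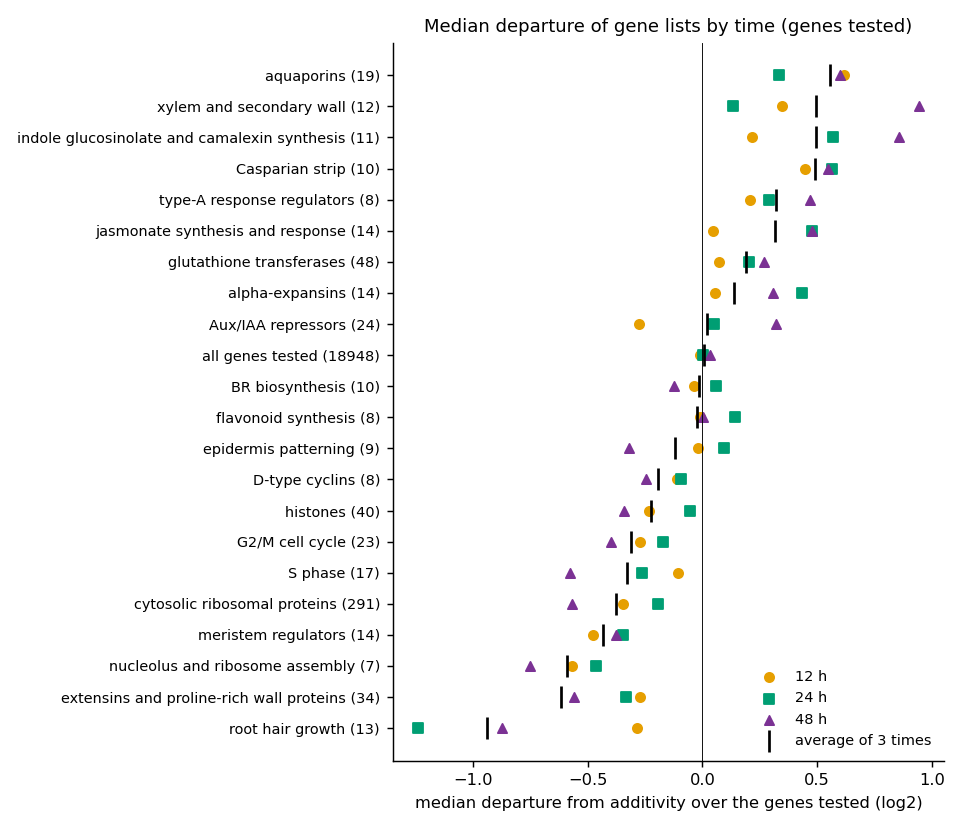
Median departure from additivity (log2, horizontal) over the tested genes of 21 lists and of all genes, at 12, 24 and 48 h and averaged (bar). Root hair growth, extensins, nucleolus, meristem regulators and ribosomal proteins lie left of 0 at all times, and aquaporins, xylem, indole glucosinolate and Casparian strip lists lie right of it.

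The 3 times use separate libraries. No gene was called at 12 h by limma (1671 at an unadjusted p under 0.05; edgeR 0, DESeq2 121) or at 24 h (1132; edgeR 0, DESeq2 39), and 161 genes were called at 48 h (0.85%), 79 higher and 82 lower. Without BL+Kyn at 48 h replicate 2 the 48 h count was 2839, and without mock at 48 h replicate 2 it was 10. A moderated F test for a change of the departure with time called no gene (1039 at an unadjusted p under 0.05; edgeR 0). Of the 134 genes called from 24 and 48 h (63 higher, 71 lower), 105 had the same sign in the 8 libraries of 12 h (78.4%), against 62.1% of all tested genes. Their median departure at 12 h was 0.41 for the higher and -0.42 for the lower genes, compared with 0.98 and -1.51 at the times that chose them.

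By the same mean and symbol rule, the largest departures called at 24 and 48 h included CCP3 (-2.11), EXPA7 (-2.16) and IQD20 (-2.39) below the sum, and CAF1a (2.83), LAC10 (1.77) and JAL22 (1.75) above it. JAL22, a jacalin-type lectin, had log2 changes against mock of -1.51 in BL, -0.86 in Kyn and -1.39 in BL+Kyn, so the combination fell short of the sum, and its departure at 12 h was -0.57. CAF1a, a deadenylase subunit, had an adjusted p of 0.0499 by limma there and 0.244 over all 3 times, with -2.04 at 12 h. At 48 h they included RSL2 (-3.04), CYP78A5 (-2.55) and LRL3 (-2.48) below and RTM3 (3.01) and MAKR4 (3.01) above, with JAL22 at 2.39.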

How the data were processed

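Roots of 3-day-old Col-0 seedlings were profiled in 24 libraries, 2 for each of 12 groups of treatment and time, with groups taken from the sample labels. The deposited values are a signal, gene counts divided by 1 size factor per library, which the authors named normalized counts. Per the submitters' processing notes, the tools were DESeq2 1.18.1, HTSeq 0.6.1, TopHat2 2.1.0, FastQC 0.11.5, cutadapt 1.10 and Trim Galore, with the TAIR10 build; their roles, strand counting and collapsing of molecular barcodes are not given in the sources used here. Between 99.9% and 100% of values were whole multiples of 1 read within 0.1, so whole reads were recovered from them.

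The main test was limma 3.58.1 with a mean-variance trend in R 4.3.3 on log2(value + 1) for genes with a mean of at least 5, with 12 group means and 12 residual degrees of freedom, and 8 for the 16 libraries of 24 and 48 h. Fold changes on this scale understate changes of low genes. P-values were adjusted by Benjamini-Hochberg over all 18948 genes, with a threshold of 0.05, and measure the spread between these libraries. edgeR 4.0.16 and DESeq2 1.42.0 on the recovered reads, other pseudocounts, filters, scalings and left-out libraries were alternatives. Only the limma fit of the departure averaged over time was tried on simulated counts, which held no single-treatment or time effects. Same-numbered libraries were not paired: over 66 pairs of groups the correlation of their deviations had a median of 0.0281 and passed 0.1 in 9. Named genes were the 12 largest called departures each way (mean of at least 20, a symbol, 1 sign at all times), up to 4 called genes per list, up to 3 each way at 24 and 48 h and at single times, and a set of landmark genes. The genes and lists were chosen with earlier results of these data known. Gene names came from the files and RefSeq, with 32940 of 33715 locus IDs matched. The result of 1 gene that the naming rule selects is not reported here.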

Additional observations from a re-analysis of the deposited data

Results flagged for a closer look

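The departure is itself a test, gene by gene, of whether the BL response differed with and without Kyn, and 3 counts of genes called by it are given. They share libraries and do not support one another. Averaged over 12, 24 and 48 h, the BL response differed with Kyn for 755 genes by limma. From the libraries of 24 and 48 h it differed for 134 genes, of which 113 were also among the 755, and at 48 h for 161.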

How the results depend on the processing

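Averaged over time, 755 genes were called; the count was 342 with no filter on low values, 182 on the linear scale (134 higher, 48 lower), 91 without both libraries rich in green-tissue transcripts, 1360 with DESeq2 and 134 from 24 and 48 h alone. From 24 and 48 h it was 52 with no filter, 2 on the linear scale and 578 with DESeq2 in place of 134. At 48 h it was 87 and 589 with no filter and DESeq2 in place of 161. DESeq2 called 121 genes at 12 h and 39 at 24 h, 4 genes were called at 24 h without both green-tissue libraries, and 3 changed with time on the linear scale, where limma on the log scale called 0. With the replicate number as a block, 287 genes were called at 24 and 48 h and 945 averaged; the shared numbers do not pair the libraries. MIOX4 turned to 0.95 in gene means on the linear scale. The causes were not tested.

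Leaving out 1 library gave 151 to 3087 calls averaged over time, with 18 of 24 libraries moving it over 1.5 times. Without mock at 12 h it was 228 and 497 (replicates 1 and 2), at 24 h 392 and 224, at 48 h 356 and 248. Without BL it was 235 (12 h replicate 2), 234 and 355 (24 h) and 443 (48 h replicate 2). Without Kyn it was 221 (12 h replicate 2), 327 and 455 (24 h), 393 and 302 (48 h), and without BL+Kyn 151 (12 h replicate 2), 239 (24 h replicate 2) and 3087 (48 h replicate 2). The ranges were 33 to 2567 at 24 and 48 h, 10 to 2839 at 48 h, 0 to 175 at 12 h, 0 to 14 at 24 h and 0 to 81 for the change with time. Of 87 named calls, 55 were lost without the green-tissue libraries, 56 at 24 and 48 h and 64 on the linear scale; none reversed in 36 settings. The DESeq2 test of change with time was not run. With 2 libraries a group, 1 library can decide a count.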

Other observations

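Genes of 2 triterpene clusters on chromosome 5, chosen after their values were seen, lay above the sum. The 7 chosen, THAS1, CYP708A2, CYP705A5 and AT5G47980 of the thalianol cluster and MRN1, CYP71A16 and CYP705A12 of the marneral cluster, were called higher, with departures from 0.81 to 1.70 and a median of 1.12. Of all tested genes 1.66% were called higher, but these genes were picked for their values, so their count of calls is no result about the clusters. At 24 and 48 h, and without the 2 libraries rich in green-tissue transcripts, CYP705A5 and CYP708A2 were called and the other 5 were not (limma adjusted p from 0.0521 to 0.16 and from 0.0551 to 0.14). The first cluster spans 19428888 to 19461689 and the second 17023646 to 17058245 (TAIR10). A further set of 9 genes chosen in the same way encode subunits of the TCP-1 chaperonin, which folds actin and tubulin. Of these 9, 5 were called lower (2.32% of all tested genes were), with a median of -0.38 and a range of -0.54 to -0.21. This count too follows from the choice. None of these 5 calls held at 24 and 48 h (limma adjusted p from 0.104 to 0.147), without the 2 libraries rich in green-tissue transcripts (0.144 to 0.19) or on the linear scale (0.0729 to 0.113).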
